A study of Mus musculus with 8 samples.

Results

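The TRBJ1 genes are the joining (J) segments of the first D–J–C cluster of the mouse T cell receptor β (TCRβ) locus. Their members were taken by name, as every barcode that was not marked as a multiplet and whose TCRβ (TRB) chain carried a J gene beginning with TRBJ1-, and names that differed only by a trailing number were summed, so that TRBJ1-3_1 (7471 barcodes) and TRBJ1-3_2 (978 barcodes) count as TRBJ1-3. TRBJ1 genes were found in 65673 of 188544 barcodes with a TRB chain, spread over 6 TRBJ1 genes, and the other barcodes carried 6 TRBJ2 genes. The chains came from single-cell TCR sequencing (Parse Evercode, which labels the RNA inside fixed cells with successive well barcodes) of mouse CD8+ T cells. The 14 tables come from 7 mice. Each mouse gave thymus cells, and the further table was of spleen in mouse-155A and mouse-155C but of tumor in the other 5 mice. The study used Pdcd1fl/fl mice and Pdcd1 cKO mice, in which a Cre driven by the CD8 E8I enhancer deletes Pdcd1 (the gene of the inhibitory receptor PD-1) in CD8+ cells, either at baseline or bearing B16-OVA or B16-F10 melanoma, and all of them carry the floxed allele. The labels do not say which table has which genotype or tumor, and they name 8 multiplexed sublibraries instead of animals. Animal and tissue were therefore read from the table names, no genotype or tumor model was compared, and every value below describes 1 table per mouse and tissue without a test. Spleen and tumor cannot be told apart from the mouse they came from.

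A TCRβ chain is assembled in the thymus by joining a V, a D and a J segment, with bases trimmed from the ends and others added between them. The mouse locus holds a pair of clusters, Trbd1 with the Trbj1 genes and Trbc1, followed by Trbd2 with the Trbj2 genes and Trbc2, so that Trbd1 can join either set of J segments whereas Trbd2 lies downstream of every Trbj1 gene. The J segment encodes the last residues of CDR3, the loop that contacts peptide and MHC, up to a conserved phenylalanine that is followed by the framework. The germline segments are printed because each one sets the end of the CDR3 of its chains. They were read on the plus strand of GRCm39 with GENCODE vM39 annotation, each annotated as a TR_J_gene, and the capitals mark the bases that can contribute to CDR3.
TRBJ1-1, chr6:41510798-41510845: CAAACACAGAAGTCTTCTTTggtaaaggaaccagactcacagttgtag
TRBJ1-2, chr6:41510935-41510982: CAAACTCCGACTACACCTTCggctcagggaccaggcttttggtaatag
TRBJ1-3, chr6:41511257-41511306: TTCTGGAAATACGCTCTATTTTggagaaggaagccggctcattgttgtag
TRBJ1-4, chr6:41511745-41511795: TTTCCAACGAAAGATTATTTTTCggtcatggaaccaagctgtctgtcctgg
TRBJ1-5, chr6:41512018-41512067: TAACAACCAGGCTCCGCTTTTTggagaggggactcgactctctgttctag
TRBJ1-6, chr6:41512488-41512540: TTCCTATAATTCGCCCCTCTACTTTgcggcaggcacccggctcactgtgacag
In the reading frame of the conserved phenylalanine these ends encode NTEVFF in TRBJ1-1, NSDYTF in TRBJ1-2, SGNTLYF in TRBJ1-3, SNERLFF in TRBJ1-4, NNQAPLF in TRBJ1-5 and SYNSPLYF in TRBJ1-6. The 6 segments span 1743 bases. TRBJ1-1 begins 651 bases after the end of Trbd1 and TRBJ1-6 begins 2341 bases after it. Trbd1 (chr6:41510135-41510146) reads gggacagggggc, and Trbd2 (chr6:41519097-41519110), which reads gggactgggggggc, begins 6556 bases after the end of Trbj1-6. A further segment, Trbj1-7, is annotated behind Trbj1-6 and was named in no barcode.

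The tables held between 5281 and 29894 barcodes with a TRB chain, and the median barcode carried 1 or 2 TRB transcripts. A TCRα (TRA) chain was read in 20.4–47.2% of the TRBJ1 barcodes of a table. No full barcode occurred in more than 1 table. However, 8595 TRBJ1 barcodes (13.1%) carried the same TRB chain, the same second-round and third-round barcodes and the same sublibrary as a barcode with more TRB transcripts, and differed from it in the first-round barcode that marks the sample. These are called matched barcodes. The corresponding figure for TRBJ2 was 18902 barcodes (15.4%). Among the TRBJ1 matched barcodes 8443 held 1 transcript, and 2.37% had a TRA chain against 40.8% of the other TRBJ1 barcodes. Their share of TRBJ1 barcodes ranged from 5.57% to 30.7% over the tables, with a median of 12.7%, and what made them was not tested. The shares of TRBJ1 within mice, the gene order, the leading chains and the chains of several mice are given with and without them, and values with no such remark include them.

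TRBJ1 genes made up the smaller part of the TRB repertoire in every table, and their share was lower outside the thymus in most mice. Among thymus barcodes with a TRB chain, TRBJ1 took 34.3% for mouse-155A, 35.5% for mouse-155C, 36.0% for mouse-160A, 37.9% for mouse-160B, 36.8% for mouse-160C, 36.6% for mouse-164B and 36.1% for mouse-164C. The spleen held 34.4% in mouse-155A and 34.5% in mouse-155C. Tumor shares were 37.2% for mouse-160A, 32.3% for mouse-160B, 35.0% for mouse-160C, 31.0% for mouse-164B and 33.5% for mouse-164C. The ranges of the tissues overlapped, with medians of 36.1% in the thymus and 34.4% in the other tables. Within a mouse, the spleen or tumor share was lower than the thymus share in 5 of 7 mice, and the 95% interval of the difference lay below 0 in 4 of them. The largest gaps were in mouse-160B, with a difference of -5.61 percentage points, and mouse-164B, with -5.57. The tumor of mouse-160A went the other way, with a difference of 1.27 percentage points, and the spleen of mouse-155A lay within 0.127 of its thymus. Intervals are exact binomial for shares and cover counting error only, since reads and barcodes were not independent animals.

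**Figure D1:**
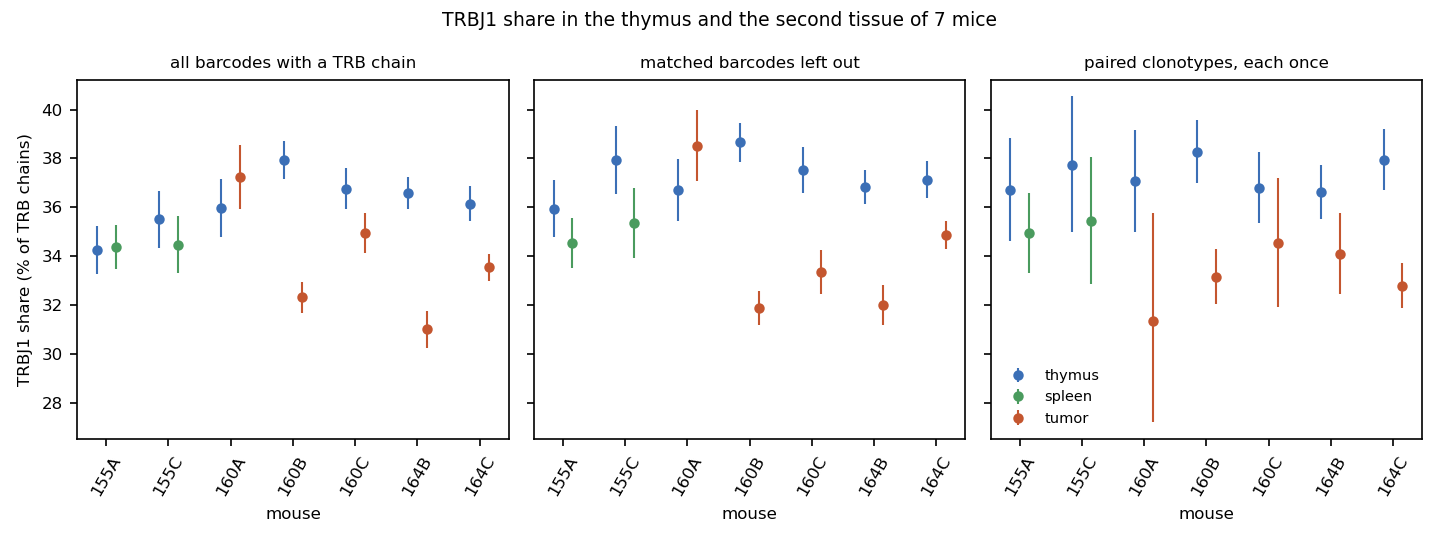
Share of TRBJ1 genes (percent, y axis) in the thymus and in the spleen or tumor of each of the 7 mice (x axis), over all barcodes, with matched barcodes left out, and with each paired clonotype counted once, with exact 95% binomial intervals. Paired clonotypes are lower outside the thymus in 7 of 7 mice, whereas over barcodes the tumor of mouse-160A lies above its thymus in both of the other panels.

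The count of cells mixes the gene of a chain with the growth of the clone that carries it, so the shares were also computed with each chain counted once per table. A distinct chain is a combination of V gene, J gene and CDR3 amino acid sequence, and the tables held 48876 distinct TRBJ1 chains in all, beside 89841 TRBJ2 chains. Over distinct chains the TRBJ1 share was lower outside the thymus in 6 of 7 mice, and 3 of the intervals lay below 0. The exception was the tumor of mouse-160C, which stood 2.80 percentage points above its thymus at 39.5%. Over paired clonotypes, each a pair of a TRA and a TRB CDR3 (as amino acids) counted once, the share was lower in 7 of 7 mice. It ranged from 36.6% to 38.3% in the thymus and from 31.4% to 35.4% in the spleen and tumor, without overlap, and the differences ran from -5.70 to -1.76 percentage points with 4 intervals below 0. Over barcodes with both chains, where clone size counts, the tumors spread widely, from 26.8% for mouse-160C to 49.0% for mouse-160A. With the matched barcodes left out, an alternative chosen after seeing the data, the share was lower in 6 of 7 mice over barcodes and in 5 of 7 over distinct chains.

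TRBJ1-1, the segment nearest to Trbd1, was the most used of the 6 genes and TRBJ1-5 and TRBJ1-6 the least. TRBJ1-1 was read in 21392 barcodes, 32.6% of all TRBJ1 barcodes, and TRBJ1-2 in 14697. TRBJ1-4 was read in 12158, TRBJ1-3 in 8449, TRBJ1-6 in 4554 and TRBJ1-5 in 4423. The order of use did not follow the order along the chromosome, since TRBJ1-4 lay above TRBJ1-3. Over distinct chains the order TRBJ1-1, TRBJ1-2, TRBJ1-4, TRBJ1-3, TRBJ1-6, TRBJ1-5 held in 12 of 14 tables, and over barcodes in 6 of 14. Without the matched barcodes it held in 8 of 14 tables over distinct chains and in 6 of 14 over barcodes. Neighbours in that order were not all separable. Over distinct chains the intervals of TRBJ1-2 and TRBJ1-4 lay apart in 1 of 14 tables, and those of TRBJ1-6 and TRBJ1-5 in 2 of 14. Over barcodes, TRBJ1-2 lay above TRBJ1-4 with intervals apart in 6 of 14 tables and below it in 2. In the same way TRBJ1-6 lay above TRBJ1-5 in 3 of 14 tables and below it in 2.

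**Figure D2:**
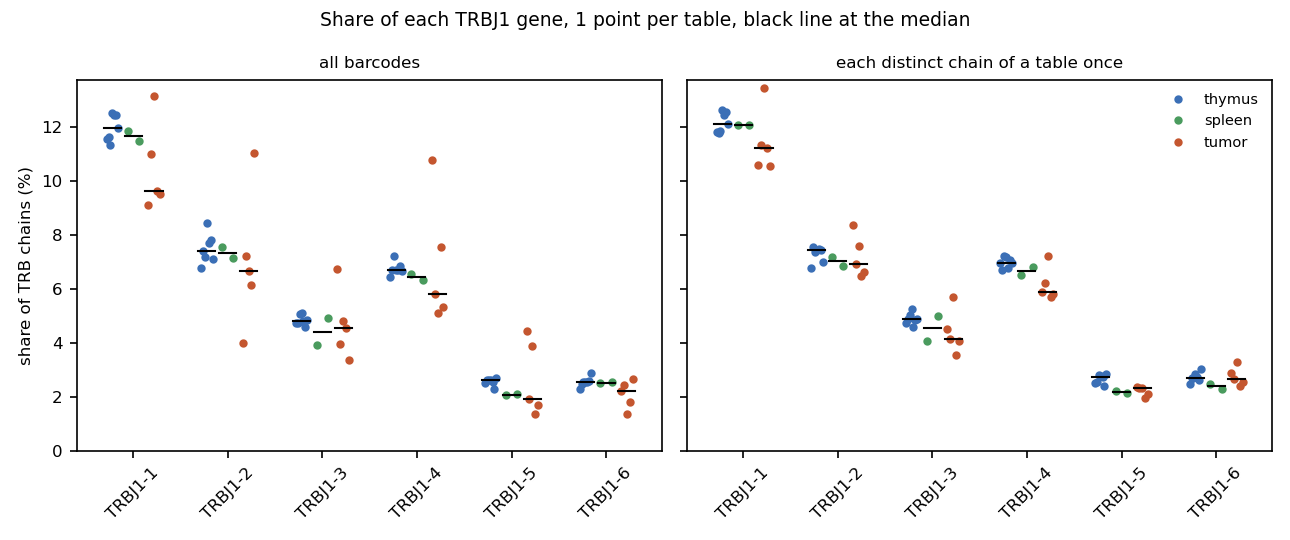
Share of each of the 6 TRBJ1 genes among TRB barcodes and among distinct TRB chains (percent, y axis) in the 14 tables, with thymus, spleen and tumor marked apart and a black line at each median. The thymus points of a gene lie close together, and the tumor points spread widely over barcodes, up to 10.8% for TRBJ1-4 and 11.04% for TRBJ1-2.

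The 6 genes varied little among the thymus tables. Among thymus barcodes with a TRB chain, TRBJ1-1 ranged from 11.3% to 12.5% with a median of 11.96%, and TRBJ1-2 from 6.78% to 8.45% with a median of 7.41%. TRBJ1-3 ranged from 4.60% to 5.09% and TRBJ1-4 from 6.43% to 7.23%. The least used genes held 2.27–2.70% for TRBJ1-5 and 2.27–2.87% for TRBJ1-6. Highest over lowest was at most 1.26 for any gene in the thymus, and reached 3.28 for TRBJ1-5 and 2.76 for TRBJ1-2 in the spleen and tumor. There TRBJ1-1 ranged from 9.11% to 13.2%, TRBJ1-2 from 4.00% to 11.04%, TRBJ1-3 from 3.36% to 6.74%, TRBJ1-4 from 5.11% to 10.8%, TRBJ1-5 from 1.36% to 4.45% and TRBJ1-6 from 1.36% to 2.65%. In the tumor of mouse-164C TRBJ1-2 was the most frequent TRBJ1 gene, and in the tumor of mouse-160A it was TRBJ1-4.

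Within mice, TRBJ1-5 showed the most even direction over distinct chains. Its share of distinct thymus chains was 2.49% for mouse-155A, 2.54% for mouse-155C, 2.80% for mouse-160A, 2.77% for mouse-160B, 2.72% for mouse-160C, 2.39% for mouse-164B and 2.85% for mouse-164C. In the same order of mice, the spleen or tumor held 2.20%, 2.14%, 2.35%, 2.31%, 2.33%, 1.94% and 2.11%. The highest value outside the thymus thus lay below every thymus value, and the share was lower outside the thymus in 7 of 7 mice, by 0.296 to 0.738 percentage points, with 3 intervals below 0. Without the matched barcodes the share was lower outside the thymus in 6 of 7 mice. The ranges then overlapped, with 3.07% of distinct chains in the tumor of mouse-160A beside 2.51% in the thymus of mouse-164B. Over paired clonotypes the share was lower in 5 of 7 mice, and 1 interval lay above 0. TRBJ1-1 was lower outside the thymus in 4 of 7 mice over distinct chains, in 7 of 7 without the matched barcodes and in 7 of 7 over paired clonotypes. The other 4 genes were lower in 4 or 5 of 7 mice over distinct chains. For comparison, 1 TRBJ2 gene, TRBJ2-1, was higher outside the thymus in 7 of 7 mice over distinct chains.

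In tumors a single chain could hold most barcodes of a TRBJ1 gene. In the tumor of mouse-160A, 76.6% of TRBJ1-5 barcodes and 69.4% of TRBJ1-3 barcodes belonged to a single chain each. In the tumor of mouse-160C a single chain held 73.9% of TRBJ1-5 barcodes, whereas the top chain of TRBJ1-6 there held 9.24%. In that tumor 17 TRBJ1 chains with 20 or more barcodes made up 50.8% of TRBJ1 barcodes. Large chains were not confined to TRBJ1. Among all TRB chains of a tumor, the TRBJ1 chain with the most barcodes ranked 1 in mouse-164C and 2 in mouse-164B. It ranked 3 in mouse-160A and 5 in mouse-160B and in mouse-160C, and the chains above it carried TRBJ2 genes. In the thymus the top chain of a table held at most 2.58% of its TRBJ1 barcodes.

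The leading TRBJ1 chain of each table was taken by count, and 5 chains covered the 14 tables, with ties in the thymus of mouse-160A and the tumor of mouse-160B. Without the matched barcodes the leader was another chain in 6 tables, and 10 chains covered the 14. Their CDR3 nucleotide sequences are printed because they show how much of each CDR3 comes from the J segment. The capitals mark the bases assigned to J, and the remaining bases come from V, D and added nucleotides.
TRBV12-1 with TRBJ1-2, mouse-164C tumor: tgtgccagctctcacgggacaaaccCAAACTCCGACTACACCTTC
TRBV13-1 with TRBJ1-3, mouse-160A tumor: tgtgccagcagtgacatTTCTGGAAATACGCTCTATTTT
TRBV3 with TRBJ1-2, mouse-160B thymus: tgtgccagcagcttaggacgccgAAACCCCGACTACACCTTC
TRBV13-2 with TRBJ1-1, mouse-160C tumor: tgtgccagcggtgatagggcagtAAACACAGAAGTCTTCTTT
TRBV13-2 with TRBJ1-3, mouse-164B tumor: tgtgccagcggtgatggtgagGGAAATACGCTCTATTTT
The TRBV12-1 chain kept all 20 CDR3 bases of TRBJ1-2, and the TRBV13-1 chain all 22 of TRBJ1-3. The TRBV3 chain lacked 1 base of TRBJ1-2 and the TRBV13-2 chain with TRBJ1-1 lacked 1 base of its J. The TRBV13-2 chain with TRBJ1-3 lacked 4. Against the germline TRBJ1-2, the TRBV3 chain carried 1 difference, T6C, counted from the first base of the J segment.

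The TRBV12-1 chain was the largest. It was 1 of 43 TRBJ1 chains read in all 7 mice, and the one of these with the most barcodes. Such TRBJ1 chains numbered 29 without the matched barcodes, and 0 when a TRA chain was also required. Of 66256 TRBJ2 chains, beside 37218 TRBJ1 chains, 96 were read in all 7 mice. Under the same further rules the TRBJ2 counts were 47 and 1. The TRBV12-1 chain was read in 1860 barcodes in 14 tables, of which 1287 were in the tumor of mouse-164C. There it made up 4.31% (4.08–4.54%) of TRB barcodes and 39.0% of TRBJ1-2 barcodes, and 819 of its barcodes had a TRA chain, 741 of them the same one. Outside that tumor it was read in 573 barcodes, of which 427 were matched barcodes, 567 held 1 transcript and 17 had a TRA chain. It led the TRBJ1 chains of 8 tables alone and of 2 in a tie, and of 4 tables once the matched barcodes were left out. All 895 of its annotated barcodes had 1 nucleotide form. The other 4 leading chains were smaller. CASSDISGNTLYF (TRBV13-1, TRBJ1-3) made up 4.68% of TRB barcodes in the tumor of mouse-160A with 247 barcodes. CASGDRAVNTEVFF (TRBV13-2, TRBJ1-1) made up 3.03% in the tumor of mouse-160C with 408 barcodes, and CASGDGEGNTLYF (TRBV13-2, TRBJ1-3) 2.04% in the tumor of mouse-164B with 296. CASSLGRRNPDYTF (TRBV3, TRBJ1-2) led in the thymus of mouse-160B with 154 barcodes, 0.980% of the TRB barcodes, and 20 of these had a TRA chain.

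The genes differed in how their ends had been trimmed. For these values a chain was counted once per table and CDR3 nucleotide sequence, so that nucleotide forms of 1 amino acid chain count apart. Among 23246 such annotated thymus TRBJ1 chains, a mean of 2.52 bases was missing from the J end. An untrimmed J was found in 32.0% of them, against 24.7% of TRBJ2 chains. TRBJ1-3 was trimmed least, with a mean of 1.49 bases and 54.3% untrimmed, and TRBJ1-6 most, with 3.96 bases and 23.5% untrimmed. TRBJ1-2 had lost 1.74 bases on average, TRBJ1-5 2.61, TRBJ1-1 2.78 and TRBJ1-4 2.99. Besides the untrimmed ends, TRBJ1-6 had peaks of ends that lacked 3 bases (13.5% of its chains) and 7 bases (14.8%). TRBJ1-4 had peaks at the same lengths, with 15.98% at 3 bases and a smaller one of 9.69% at 7 bases. The numbers of bases between V and J that were not assigned to D were close for the 6 genes. Their means lay between 4.28 in TRBJ1-2 and 4.53 in TRBJ1-5. Where no D was called, every base between V and J was counted, so these values are not added bases alone. The mean number of J bases kept in CDR3 ranged from 17.2 in TRBJ1-1 to 21.0 in TRBJ1-6. The mean CDR3 length was 40.1 bases in TRBJ1-1 and 43.6 in TRBJ1-6. Annotation covered 92.7% of TRB barcodes in the thymus of mouse-160B, 41.1% in the thymus of mouse-164B, 30.4% in the tumor of mouse-164C and all of them elsewhere.

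The order of the genes by mean CDR3 length in amino acids followed the length of their germline ends. TRBJ1-1 and TRBJ1-2 differed, although both have 20 germline CDR3 bases. In thymus tables the median of the table means over distinct chains was 13.3 residues for TRBJ1-1, 13.7 for TRBJ1-2, 14.1 for TRBJ1-5, 14.3 for TRBJ1-3, 14.4 for TRBJ1-4 and 14.6 for TRBJ1-6. The shortest CDR3s were thus those of the genes with 20 germline CDR3 bases, and the longest those of TRBJ1-6, with 25. The table means of TRBJ1-1 lay between 13.25 and 13.46 and those of TRBJ1-6 between 14.45 and 14.69, so that these genes did not overlap, while those of TRBJ1-3 and TRBJ1-4 did. The SD among the chains of 1 gene within a table was above 1 residue, larger than the gap between most genes. Over TRBJ1 as a whole the mean CDR3 was shorter outside the thymus in 7 of 7 mice, by up to 0.166 residues, and TRBJ1-4 chains alone were shorter in 7 of 7. TRBJ2 chains were also shorter in 7 of 7 mice.

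The D call separated the clusters. Among 32508 distinct TRBJ1 chains with a D call, 7.80% (7.51–8.09%) were called TRBD2, against 55.8% of TRBJ2 chains. No D was called in 33.5% of TRBJ1 chains. The call rests on a short match, since Trbd1 and Trbd2 begin with the same bases and differ by few others. For the length of the match, annotated chains were counted once per table and CDR3 nucleotide sequence. The TRBD2 share of TRBJ1 chains was 7.79% among annotated chains whose D matched at least 5 bases. It was 3.74% for at least 8 bases, 1.40% for at least 9 and 1.29% for at least 10. Over the same steps the share in TRBJ2 chains was 56.0% at 5 bases and 79.9% at 10. The constant region call did not separate the clusters. TRBC1 was named in 53.5–68.6% of the barcodes of each TRBJ1 gene and in 51.3–69.1% of those of each TRBJ2 gene. TRBC2 was named in 0.0280% of TRBJ1-1 barcodes, for no other TRBJ1 gene, and in 0.162–0.410% of the barcodes of each TRBJ2 gene. The remaining barcodes had no constant region call, so the call says little about which constant gene a chain used.

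**Figure D3:**
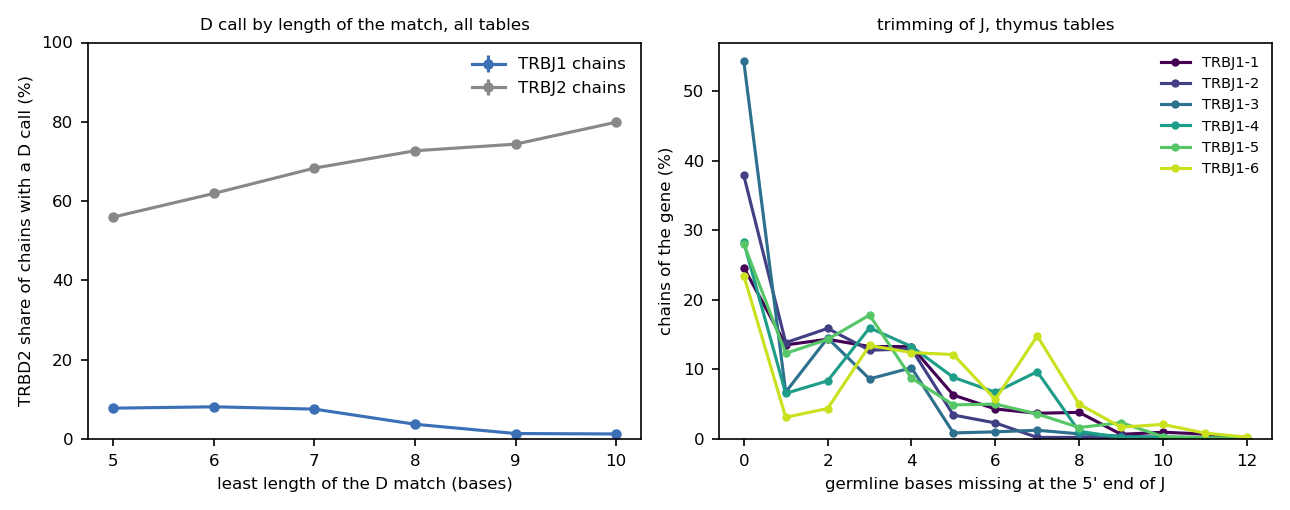
Share of chains called TRBD2 (percent) against the minimum length of the D match (bases) for TRBJ1 and TRBJ2 chains, and the distribution of bases missing from the J end for the TRBJ1 genes in thymus tables. The TRBD2 share of TRBJ1 chains is 1.29% at 10 bases, and TRBJ1-3 has the highest share of untrimmed ends at 54.3%.

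V genes differed in how often they were joined to TRBJ1. Among 73177 distinct thymus chains, 36.9% carried a TRBJ1 gene, and 21 TRBV genes had at least 200 chains. The highest TRBJ1 shares were those of TRBV26 at 43.7% (41.7–45.7%), TRBV20 at 43.4%, TRBV31 at 43.2% and TRBV19 at 42.8%, and each of these lay above the share of all V genes in 7 of 7 thymus tables. TRBV31 lies downstream of both clusters and joins by inversion. The lowest shares were those of TRBV4 at 31.6%, TRBV15 at 31.5%, TRBV17 at 29.03% and TRBV30 at 26.96%. TRBV4, TRBV15 and TRBV17 lay above the share of all V genes in 0 of 7 thymus tables, and TRBV30, with 204 chains, in 1 of 7. The spleen and tumor tables, which did not enter the choice of these genes but come from the same mice, held 33.4% TRBJ1 over all V genes. There TRBV26 had 37.7%, TRBV20 38.4%, TRBV31 39.9% and TRBV19 39.2%. TRBV4 had 28.2%, TRBV15 28.0%, TRBV17 25.1% and TRBV30 27.7%.

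**Figure D4:**
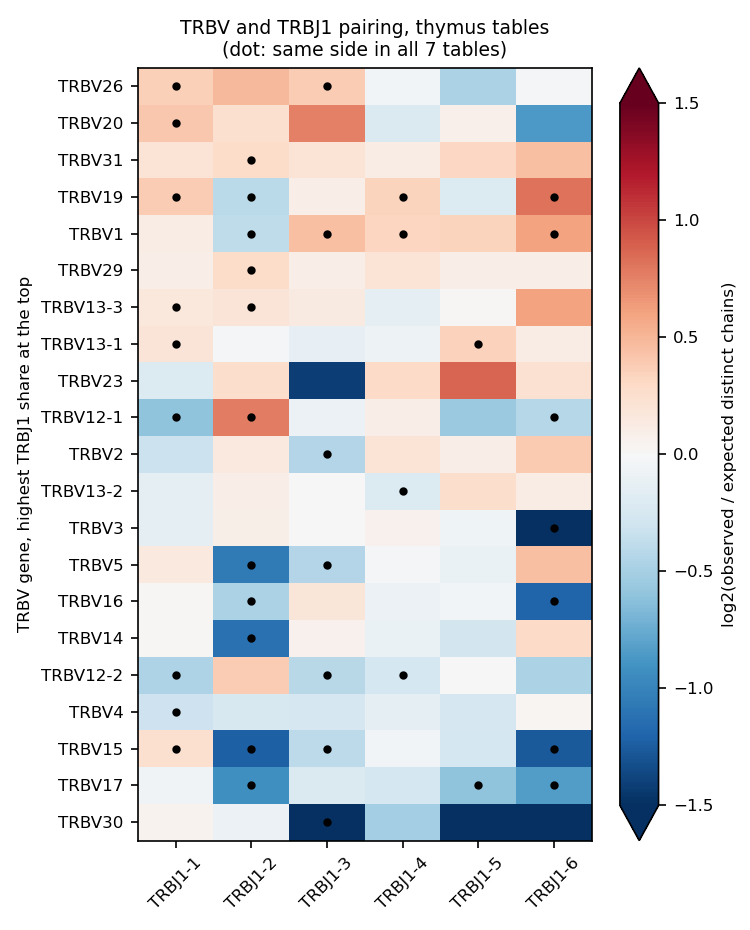
Colour gives the log2 ratio of observed to expected distinct thymus chains for each pair of a TRBV gene (rows, highest TRBJ1 share at the top) and a TRBJ1 gene (columns), with the expected number from the shares of both genes and a dot where all 7 tables lie on the same side. Dotted pairs with high ratios are TRBV19 with TRBJ1-6 (ratio 1.75) and TRBV12-1 with TRBJ1-2 (1.70), and TRBV3 with TRBJ1-6 (0.335) is a dotted pair with a low ratio.

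Single V–J pairs departed further from the product of their genes' shares. Over 126 pairs the ratio of observed to expected chains ran from 0.185 to 1.83, with 78 pairs between 0.8 and 1.25. Both extremes rested on few chains, 21 for TRBV23 with TRBJ1-5 and 1 for TRBV30 with TRBJ1-5. The ratio was above 1 in all 7 thymus tables for 17 pairs and below 1 in all 7 for 23 pairs. TRBV12-1 was joined to TRBJ1-2 at a ratio of 1.70, between 1.58 and 1.81 over the tables, and to TRBJ1-1 at 0.659. TRBV19 and TRBV1 were joined to TRBJ1-6 at 1.75 and 1.52. TRBV3 and TRBV16 were joined to the same gene at 0.335 and 0.435. TRBJ1-2 was low with TRBV15 at 0.427, TRBV14 at 0.460 and TRBV5 at 0.479. The pairs named here were picked after their values were seen.

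The thymus tables also held cells with a different TRBJ1 profile. Barcodes with TRAV11 or TRAV11D joined to TRAJ18 carry the TCRα rearrangement of invariant NKT cells, which recognise lipids on CD1d with a β chain of a few V genes and a varied CDR3. They were 2426 of 29134 thymus barcodes with both chains (8.33%), between 5.90% and 10.9% over the tables, and 0–0.796% in the spleen and tumor. Their TRBJ1 share was 38.2% (36.2–40.1%), against 37.2% (36.6–37.8%) in the other thymus barcodes. The genes within TRBJ1 were shifted. TRBJ1-2 took 11.01% of the invariant NKT-like barcodes against 7.69% of the others, and TRBJ1-5 took 5.03% against 2.68%, each higher in 7 of 7 tables. The part of these barcodes in the lower TRBJ1-5 share of distinct chains outside the thymus was not tested within mice. TRBJ1-4 took 3.71% against 7.03% and TRBJ1-6 1.28% against 2.61%, each higher in 0 of 7 tables. TRBJ1-1, with 11.995% against 12.7%, was higher in 2 of 7 tables and TRBJ1-3, with 5.15% against 4.52%, in 5 of 7. Point values did not go in the same direction for all V genes. Among barcodes of TRBV13-2, TRBJ1-2 took 13.7% against 7.23%, TRBJ1-5 4.80% against 2.71%, TRBJ1-4 2.18% against 7.00% and TRBJ1-6 0.786% against 2.90%. Among those of TRBV29 (274 invariant NKT-like barcodes), TRBJ1-2 went the other way with 7.30% (4.52–11.05%) against 10.3% (8.89–11.7%), with overlapping intervals. TRBJ1-5 took 5.47% against 2.45% there, and TRBJ1-6 had 2.55% against 2.79%. Among those of TRBV1 (241 invariant NKT-like barcodes), TRBJ1-4 went the other way with 10.4% (6.83–14.9%) against 8.15% (6.77–9.72%), again with overlapping intervals. TRBJ1-6 took 1.24% against 5.27% there. Without the matched barcodes the counts of tables were 7, 7, 0, 0, 1 and 5 for TRBJ1-2, TRBJ1-5, TRBJ1-4, TRBJ1-6, TRBJ1-1 and TRBJ1-3. The TRAV1–TRAJ33 pair of MAIT cells was found in 1 barcode in all. The libraries read TRA and TRB chains, so they bear on neither γδ T cells nor B cells.

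**Figure D5:**
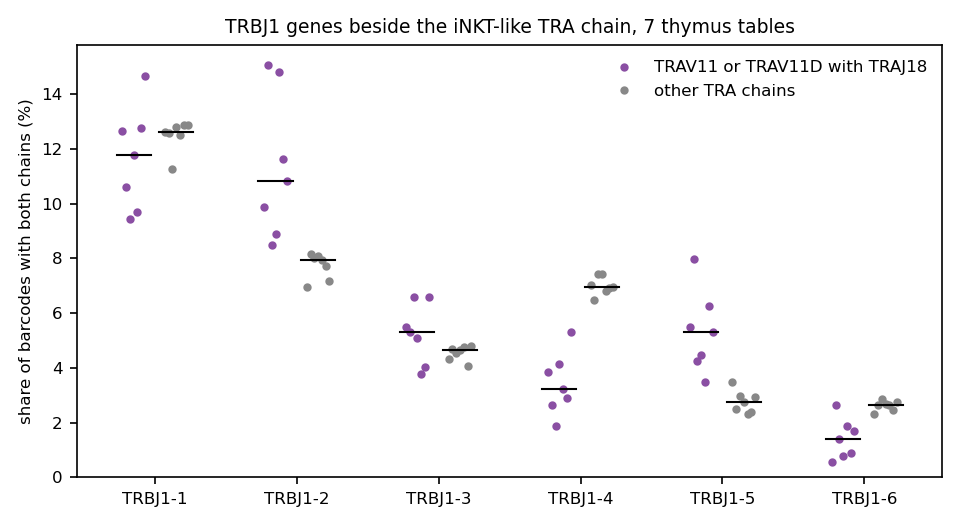
Share of each TRBJ1 gene (percent, y axis) in thymus barcodes with TRAV11–TRAJ18 and in those with another TRA chain, 1 point per table. TRBJ1-2 and TRBJ1-5 are higher and TRBJ1-4 and TRBJ1-6 lower in the TRAV11–TRAJ18 barcodes in 7 of 7 tables.

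Finally, the TRBJ1 genes differed in how many of their chains were read in more than 1 mouse. Over the series 20.2% of 37218 distinct TRBJ1 chains were read in several mice, beside 22.1% of TRBJ2 chains. Without the matched barcodes the shares were 10.9% for TRBJ1 and 11.4% for TRBJ2. The TRBJ1 share fell to 4.25% (3.96–4.56%) when a TRA chain was also required. Under the last rule TRBJ1-2 had the highest share at 5.96% (5.21–6.79%), followed by TRBJ1-1 at 5.14%, TRBJ1-3 at 3.69% and TRBJ1-4 at 3.14%. TRBJ1-6 had 1.87% (1.20–2.76%) and TRBJ1-5 1.76% (1.13–2.61%), below the intervals of TRBJ1-1 and TRBJ1-2. TRBJ2 chains stood at 4.31%. Both of the genes with the highest shares were also the most frequent, and the part of frequency in this was not tested. Of 170 paired clonotypes found in the thymus and in the other tissue of the same mouse, 46 carried a TRBJ1 gene (27.1%, 20.5–34.4%), beside the 36.6–38.3% of all paired clonotypes in the thymus tables and 31.4–35.4% in the others. Mouse-164B gave 70 of them and mouse-160B 48, and the share ranged from 6.67% of 15 in mouse-155C to 50% of 2 in mouse-155A and of 6 in mouse-160C. These counts include the matched barcodes, and how many of the 170 clonotypes rest on them was not tested.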

How the data were processed

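The authors purified the cells with magnetic kits, a CD8a+ kit for thymus and spleen and CD8 (TIL) microbeads for tumor. The authors' Parse Biosciences pipeline gave barcode tables with, per the file headers, counts of transcripts for each TRA and TRB chain and a multiplet mark. For its version, and for its reference, nothing is given in the sources used. The build is GRCm39 per the submitters' processing notes. Barcodes marked as multiplets were left out. Each table was described separately, since labels give no groups, and shares carry exact (Clopper–Pearson) 95% intervals. Cells are not replicates, so no test was run. Junctions were read from the deposited annotation tables. The members, lists and named genes were chosen with earlier results of these data known. Named were all 6 TRBJ1 genes, the 4 TRBV genes at each end among those with at least 200 distinct thymus chains, the leading TRBJ1 chain of each table, and the 3 TRBV and 3 TRBJ2 genes with the highest (most positive) correlation with the TRBJ1 share. Scripts used Python 3.11.15, pandas 2.3.3 and scipy 1.17.1, and were tested on simulated data.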

Additional observations from a re-analysis of the deposited data

Results flagged for a closer look

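The TRBJ1-1 share of distinct chains in the tumor of mouse-160C, 13.4%, stood apart from the 4 other tumor tables, which lay between 10.5% and 11.3%. Without the matched barcodes it was 12.1%, beside 10.9–11.8% in the others. The 13.4% was the single value that stood apart among 28 sets of tables looked at. Chance alone flags about 5% of such sets, so 1 flag among 28 is not unusual. Secondary TRB chains, recorded beside the main chain of a barcode and used in no comparison, carried a TRBJ1 gene in 36.7% of 23835 chains, between 34.1% and 40.9% over the tables.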

How the results depend on the processing

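The number of mice with a lower TRBJ1 share outside the thymus was 5 to 7 of 7 under all alternatives. Single mice did change direction: mouse-160C went from -1.82 percentage points over barcodes to 2.80 over distinct chains, and mouse-160A from 1.27 over barcodes to -5.70 over paired clonotypes. The thymus median of 36.1% became 36.9% with both chains required, 37.2% with at least 2 TRB transcripts, 34.8% when weighted by transcripts, 38.9% without chains of more than 1 animal, 37.1% without matched barcodes, 37.1% over paired clonotypes and, by construction, 32.9% without the suffixed TRBJ1-3 names. The spleen and tumor median of 34.4% became 35.3% with both chains (in single tumors, 49.0% for mouse-160A and 26.8% for mouse-160C), 32.9% with at least 2 transcripts, 32.8% when weighted, 32.9% without the 10 largest chains of each table and 31.2% without the suffixed names. The TRBD2 share of TRBJ1 chains became 7.29% with at least 2 transcripts, 9.54% when weighted, 9.11% over every barcode, and 8.14%, 3.74%, 1.40% and 1.29% with a D match of at least 6, 8, 9 and 10 bases. The alternatives on matched barcodes, paired clonotypes, every barcode and D match were chosen after seeing the data. Leaving out each sublibrary gave 36.0–36.5% in the thymus and 33.6–34.5% elsewhere. Transcript depth of 1 or 2 per barcode limits calls on single barcodes.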

Other observations

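Over the 14 tables, the TRBV gene whose share was most positively correlated with the TRBJ1 share was TRBV13-2, with Pearson r of 0.54 and Spearman rho of 0.80, followed by TRBV5 (r of 0.51) and TRBV13-3 (r of 0.32). The most negative was TRBV29 (r of -0.64, rho of -0.56). Among TRBJ2 genes r was 0.38 for TRBJ2-4, -0.04 for TRBJ2-1 (rho of -0.44), -0.12 for TRBJ2-2, -0.16 for TRBJ2-3, -0.30 for TRBJ2-5 and -0.70 for TRBJ2-7 (rho of -0.64). The points share mice, and shares of a whole depend on each other.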
